A study of Mus musculus with 12 samples.

Results

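The mRNAs of 6 genes through which the mouse oocyte signals to, or is signalled to by, its granulosa cells were examined in 12 libraries of WT and Zar1/2-null oocytes. The genes Gdf9, Bmp15, Bmp6, Fgf8, Kit and Gja4 were taken by name, as secreted ligands, a receptor and a gap junction protein of the oocyte, and they are 6 of the 23230 genes in the table. All 6 were among the 11502 genes that reached 1 FPKM in at least 1 library, and each had a value above 0 in every library.

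The groups were growing, fully grown germinal vesicle (GV) and ovulated metaphase II (MII) oocytes, with 2 libraries of 10 oocytes for each stage and genotype. MII is the sample label of the ovulated oocytes. The study reports that ovulated oocytes of the double mutant were arrested in metaphase I or were still in telophase of meiosis I. The genotypes labelled MII were therefore not matched in meiotic stage. The study held WT oocytes in meiosis I with nocodazole, a microtubule disruptor, and reports that decay of selected mRNAs, by RT-qPCR, was unaffected. In the present libraries, the part of the stage mismatch in the MII and GV-to-MII genotype differences was not tested. All mice had the C57BL6/ICR hybrid background. The sample labels put the females used for growing oocytes at 13.5 days of age, and the study's methods at a slightly younger age. GV oocytes came from 21-day-old females 44 h after PMSG, a gonadotropin that drives follicle growth, and MII oocytes were taken 16 h after hCG, which triggers ovulation. The Zar1/2-null mice carried constitutive CRISPR/Cas9 alleles of both genes, in Zar1 a small deletion followed by a stop codon and in Zar2 a deletion in exon 1 that shifts the reading frame. Loss was therefore not limited to the oocyte or to a stage. They were compared with WT mice of the same background. The labels do not say whether replicate libraries came from separate females, so the p-values measure the spread between libraries only.

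The oocyte and its granulosa cells grow as a unit. GDF9 and BMP15 are ligands of the TGF-beta superfamily that the oocyte secretes and that drive granulosa proliferation and the expansion of the cumulus, with BMPR2 as a shared type II receptor. FGF8 acts together with BMP15 on the metabolism of cumulus cells, and in the other direction KIT ligand from granulosa cells acts on the KIT receptor of the oocyte. GJA4, a connexin of the oocyte surface, forms the gap junctions through which granulosa cells supply nutrients and cyclic nucleotides. Transcription ceases in the fully grown oocyte, and the stored mRNAs are then translated or degraded as meiosis resumes. The cytoplasmic polyadenylation element (CPE), a U-rich motif close to the poly(A) signal at the end of the 3′ UTR, is a well-known determinant of that fate.

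The 3′ ends are shown because ZAR1 and ZAR2 act on stored maternal mRNAs. A 30-base window that ends with the poly(A) signal was read from the mm9 genome for the longest annotated coding transcript of each gene, and such a window was found for 4 of the 6 genes. Each is written 5′ to 3′ on the strand of the gene with the poly(A) signal AATAAA in capitals, and a CPE, searched on that strand as TTTTAT or TTTTAAT upstream of the signal, would also be in capitals.
Gdf9: tgctgtggTTTTATgtgacggaagAATAAA
Bmp15: ttatgtattttcttaatcttaaagAATAAA
Kit: ctgttgacagttctgaagaattctAATAAA
Gja4: tagttccactgtttatgatcctcaAATAAA
The windows lie on mm9 at chr11:53251360-53251389 (plus strand) for Gdf9, chrX:5891247-5891276 (minus strand) for Bmp15, chr5:76052697-76052726 (plus strand) for Kit and chr4:126988681-126988710 (minus strand) for Gja4. The Gdf9 window held TTTTAT, with 10 bases between the motif and the signal, and the windows of Bmp15, Kit and Gja4 held neither form of the motif. Among the 7995 tested genes with such a window, 462 (5.78%) held a CPE. For Bmp6 and Fgf8 neither AATAAA nor ATTAAA was found in the last 40 bases of the annotated transcript, so no window is given. These letters describe the annotation, and the 3′ ends used in these oocytes were not measured.

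The genes lie on 6 chromosomes of mm9: Gdf9 on 11 (53244525 to 53251406, plus strand), Bmp15 on X (5891225 to 5897839, minus strand), Bmp6 on 13 (38436995 to 38592183, plus strand), Fgf8 on 19 (45811288 to 45817405, minus strand), Kit on 5 (75970941 to 76052747, plus strand) and Gja4 on 4 (126988665 to 126991283, minus strand). Bmp6 overlaps Txndc5 on the opposite strand, and because Smart-seq2 does not mark strand, reads from the overlap cannot be assigned to either gene. The other 5 genes overlap no annotated gene.

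Values are FPKM (fragments normalised to exon length and to the mapped fragments of the library) that the authors multiplied in each library by a factor from synthetic ERCC RNAs added to the lysate. The factor was 1 in both WT growing libraries, 0.862 and 0.779 in Zar1/2-null growing, 0.836 and 0.697 in WT GV, 0.533 and 0.583 in Zar1/2-null GV, 0.225 and 0.228 in WT MII and 0.283 and 0.252 in Zar1/2-null MII oocytes. The study lists unequal ERCC shares for the WT growing libraries, so a factor of 1 in both means that each replicate number had its own WT growing library as reference. A scaled level therefore includes the RNA content of the library, and fewer oocytes in a tube cannot be told apart from less RNA in each oocyte. The oocyte markers were present throughout, with all 11 that the table held over 1 FPKM in every library and summed levels of 3975 to 22131 FPKM. The 24 granulosa and cumulus markers summed to 17.4 to 38.3 FPKM in growing, 16.6 to 21.3 in GV and 5.31 to 8.61 in MII libraries. Ptx3 was listed at 0 in all 12 libraries, and Amh and Slc38a3 in all libraries outside the Zar1/2-null GV group. Zar1l, the symbol of Zar2, stood at 639 and 644 FPKM in WT against 17.5 and 13.2 FPKM in Zar1/2-null growing oocytes. Zar1 was lower in Zar1/2-null growing and GV oocytes (in growing 407 and 460 against 603 and 725 FPKM) and higher at MII (190 and 194 against 83.6 and 72.4 FPKM), so its mRNA did not report the loss of the protein.

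The 6 genes covered 3 orders of magnitude and kept clear steps between them. In WT growing and GV oocytes the order of levels was Gdf9, Bmp15, Gja4, Fgf8, Kit and Bmp6, and the same order held in Zar1/2-null growing and GV oocytes. In WT MII oocytes it was Gdf9, Bmp15, Kit, Gja4, Bmp6 and Fgf8, and in Zar1/2-null MII oocytes it was Gdf9, Bmp15, Gja4, Kit, Fgf8 and Bmp6. In none of the 6 groups did the libraries of neighbours in the order overlap. Gdf9 was among the most abundant mRNAs of the oocyte, ranking 12 and 7 among the 11502 tested genes in the WT growing libraries and 25 and 23 in the WT MII libraries, where a rank does not depend on the scaling.

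**Figure D1:**
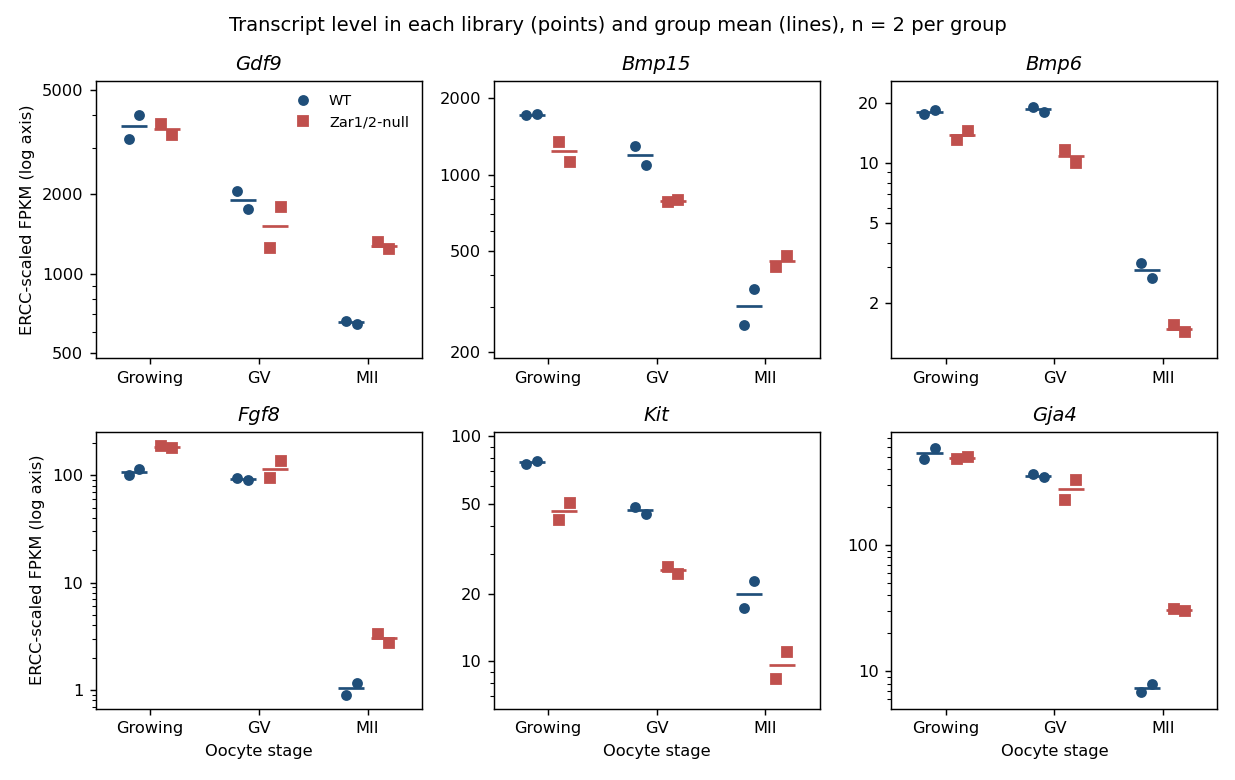
ERCC-scaled FPKM (log axis, different for each panel) of the 6 genes by oocyte stage, with each library as a point (WT circles, Zar1/2-null squares) and the mean of 2 libraries as a line. Kit and Bmp6 squares lie below the circles at each stage, Gdf9, Bmp15 and Gja4 squares lie above them at MII, and Gja4 falls from 353 FPKM at GV to 7.39 FPKM at MII in WT and from 278 to 30.6 FPKM in Zar1/2-null oocytes.

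Differences between genotypes were tested with limma on log2(FPKM + 1), with Benjamini-Hochberg adjustment over all 11502 genes and a threshold of 0.05. In growing oocytes 1 of the 6 genes was higher in Zar1/2-null oocytes (10.6% of all genes tested were) and 1 was lower (24.4%). In GV oocytes 0 were higher (2.83% of all genes) and 3 lower (40.6%). In MII oocytes 4 were higher (21.5%) and 2 lower (10.3%), so that none of the 6 was left uncalled. Without ERCC scaling the calls were 1 higher and 0 lower in growing, 1 and 0 in GV and 3 and 2 in MII oocytes, and median scaling gave the same counts. All shares over all genes in this report belong to the ERCC-scaled values. Counts of calls under other scalings, here and below, therefore cannot be set against a share. The Zar1/2-null libraries did not overlap those of WT and lay below them for 3 of the 6 in growing (47.4% of all genes tested) and 4 in GV oocytes (63.6%), and above them for 1 in growing (22.4%) and 1 in GV oocytes (6.79%). At MII 4 lay above (43.5%) and 2 below (27.8%). The median log2 fold change of the 6 genes was -0.24 in growing, -0.48 in GV and 0.78 in MII oocytes, beside -0.16, -0.38 and 0.06 over all genes tested. Without the ERCC scaling the median over all genes moved by 0.24, 0.35 and -0.06, and with a common median in each library by 0.20, 0.39 and -0.15.

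**Figure D2:**
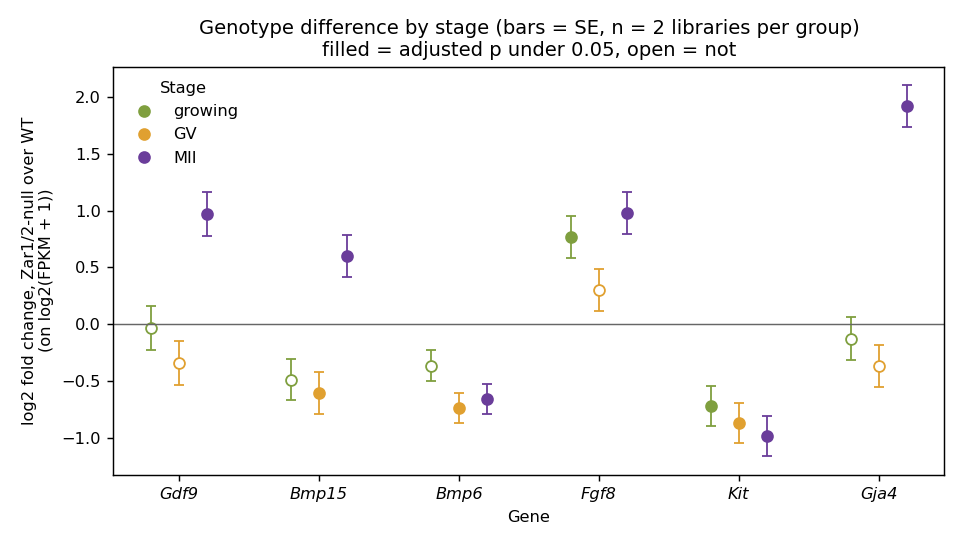
Log2 fold change of Zar1/2-null over WT oocytes for each gene (points) with its standard error (bars), coloured by stage, from limma on 2 libraries per group; filled points passed an adjusted p of 0.05. Gja4 reaches 1.92, Gdf9 0.97 and Fgf8 0.98 at MII, whereas Kit is at -0.71, -0.86 and -0.98 in growing, GV and MII oocytes.

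Gdf9, the ligand required for follicles to grow past the primary stage, did not differ detectably between genotypes before maturation and was higher in ovulated Zar1/2-null oocytes. It stood at 3267 and 4007 FPKM in WT against 3695 and 3378 FPKM in Zar1/2-null growing oocytes. At GV it was 2055 and 1759 FPKM in WT against 1252 and 1796 FPKM in Zar1/2-null oocytes, and the genotypes overlapped at both of these stages. At MII it was 660 and 643 FPKM in WT against 1314 and 1238 FPKM in Zar1/2-null oocytes. The MII libraries were clearly separate, the ones of Zar1/2-null oocytes being 1.96-fold higher on average. The log2 fold change was -0.03 in growing (standard error 0.19, limma with Benjamini-Hochberg adjusted p = 0.909), -0.34 in GV (adjusted p = 0.167) and 0.97 in MII oocytes (adjusted p = 0.00239). The MII call held without ERCC scaling (0.73) and with median scaling (0.60). The growing and GV values changed sign under both, to 0.25 and 0.21 in growing and 0.11 and 0.17 in GV oocytes, and none of these passed the test. Without Zar1/2-null GV replicate 2, the higher of the pair, the GV difference became -0.60 and passed (limma adjusted p = 0.0458).

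With the ERCC scaling, the change of Gdf9 from GV to MII was unequal in the genotypes. In WT oocytes its MII mean was 34.2% of the GV mean, a log2 change of -1.54 (standard error 0.19, limma adjusted p = 1.36e-05). In Zar1/2-null oocytes it was 83.8%, and the change of -0.23 did not pass the test (adjusted p = 0.297). The direction depended on the scaling. Without ERCC scaling the changes were 0.21 in WT (limma adjusted p = 0.224) and 0.83 in Zar1/2-null oocytes (adjusted p = 0.000506), and with median scaling 0.91 and 1.34 (adjusted p = 0.00031 and 2.42e-05). The difference between the changes was 1.31 with the ERCC scaling (adjusted p = 0.00396). It was 0.62 without ERCC scaling (adjusted p = 0.0543) and 0.43 with median scaling (adjusted p = 0.177), in neither case past the threshold, and with no filter on low values its adjusted p was 0.0518. Gdf9 had already fallen between growing and GV oocytes, by 0.93 in WT and by 1.24 in Zar1/2-null oocytes on the log2 scale (adjusted p = 0.00659 and 0.000311).

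Bmp15, the X-linked partner of Gdf9, crossed over between stages. Its level was 1714 and 1733 FPKM in WT against 1347 and 1125 FPKM in Zar1/2-null growing oocytes, and 1302 and 1095 FPKM in WT against 778 and 796 FPKM in Zar1/2-null GV oocytes. At MII the order was turned, with 255 and 353 FPKM in WT against 434 and 476 FPKM in Zar1/2-null oocytes. No libraries of the genotypes overlapped at any stage. The log2 fold change was -0.49 in growing (standard error 0.18, limma adjusted p = 0.0619), -0.60 in GV (adjusted p = 0.0220) and 0.60 in MII oocytes (adjusted p = 0.0281). Neither call held under several settings. The GV call was lost without ERCC scaling (-0.15, adjusted p = 0.556), with median scaling (-0.09, adjusted p = 0.735), and without WT GV replicate 1, Zar1/2-null GV replicate 1 or Zar1/2-null GV replicate 2 (adjusted p = 0.150, 0.0853 and 0.0653). It was lost too with no filter on low values (adjusted p = 0.0706) and with only the groups compared in the fit (adjusted p = 0.0711). The MII call was lost without ERCC scaling (0.36, adjusted p = 0.0791), with median scaling (0.23, adjusted p = 0.226) and without WT MII replicate 1, whose removal lowered the difference to 0.36 (adjusted p = 0.242). It was also lost without Zar1/2-null MII replicate 1 or 2 (adjusted p = 0.0621 and 0.128) and without WT growing replicate 1 or 2, which enter only the estimate of the spread (adjusted p = 0.0501 and 0.05002), with no filter (adjusted p = 0.104) and with only the groups compared (adjusted p = 0.101). The growing difference passed with the replicate number as a block (limma adjusted p = 0.0435).

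Bmp15 retained 25.4% of its GV level at MII in WT oocytes and 57.8% in Zar1/2-null oocytes. The log2 changes were -1.99 and -0.79 (limma adjusted p = 1.05e-06 and 0.00259), and they differed by 1.20 (adjusted p = 0.00512). Without ERCC scaling the changes were -0.24 and 0.27, neither past the test, and with median scaling Bmp15 was higher at MII in both genotypes (0.46 and 0.78). The difference between the changes was 0.51 without ERCC scaling (adjusted p = 0.133) and 0.32 with median scaling (adjusted p = 0.300). From growing to GV, Bmp15 fell by 0.53 in WT and by 0.65 in Zar1/2-null oocytes (adjusted p = 0.0486 and 0.0107). Both calls were lost without ERCC scaling (-0.14 and -0.091, limma adjusted p = 0.609 and 0.688) and with median scaling (-0.15 and -0.0039, adjusted p = 0.572 and 0.994). The WT call was also lost without any 1 of 10 libraries. The Zar1/2-null call was also lost without Zar1/2-null growing replicate 1 (-0.52) or Zar1/2-null GV replicate 1 (-0.63).

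GDF9 and BMP15 act as separate dimers and as a heterodimer, so the ratio of their mRNAs was taken within each library, where the ERCC factor cancels. It was 1.91 and 2.31 in WT and 2.74 and 3.0 in Zar1/2-null growing oocytes. At GV it was 1.58 and 1.61 in WT and 1.61 and 2.26 in Zar1/2-null oocytes, and at MII 2.59 and 1.82 in WT and 3.03 and 2.60 in Zar1/2-null oocytes. Each Zar1/2-null ratio exceeded each WT ratio of its stage, at GV and MII by a narrow margin. The mean difference of the log2 ratio was 0.36 (p = 0.00926, two-sided exact permutation test of genotype labels within stages over 216 orderings, the smallest p they allow), from 0.45 in growing, 0.26 in GV and 0.37 in MII oocytes. Leaving out a library moved it between 0.275 and 0.445, and without Zar1/2-null MII replicate 1 it was 0.32 (exact permutation p = 0.0556). Within a stage, 2 libraries against 2 cannot give an exact p below 0.333.

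**Figure D3:**
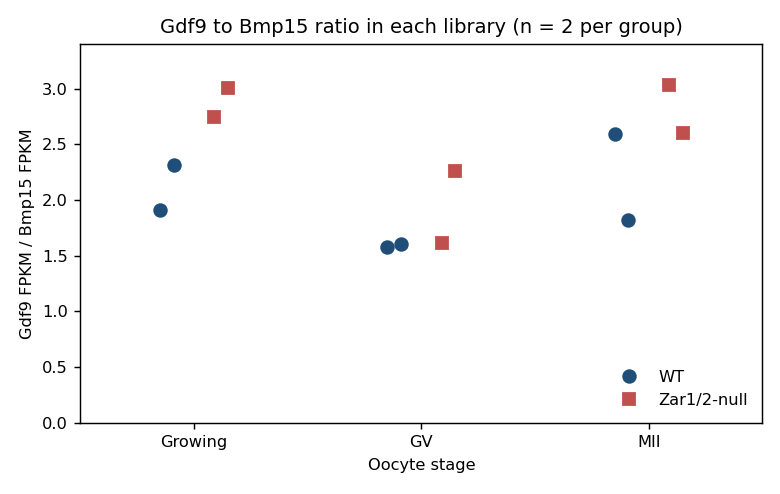
Ratio of Gdf9 to Bmp15 FPKM in each of the 12 libraries by oocyte stage (WT circles, Zar1/2-null squares, 2 libraries per group, axis from 0). The Zar1/2-null ratios lie above the WT ratios at each stage, with the widest gap in growing oocytes (1.91 and 2.31 against 2.74 and 3.0).

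Bmp6, a further TGF-beta superfamily ligand of the oocyte, was expressed at a far lower level and was lower in Zar1/2-null GV and MII oocytes. It stood at 17.8 and 18.5 FPKM in WT against 13.2 and 14.6 FPKM in Zar1/2-null growing oocytes. At GV it was 19.2 and 18.2 FPKM in WT against 11.6 and 10.1 FPKM in Zar1/2-null oocytes, and at MII 3.16 and 2.66 FPKM in WT against 1.53 and 1.42 FPKM in Zar1/2-null oocytes. The Zar1/2-null libraries were lower than those of WT at all 3 stages, with no overlap. The log2 fold change was -0.36 in growing (standard error 0.14, limma adjusted p = 0.0576), -0.74 in GV (adjusted p = 0.00154) and -0.66 in MII oocytes (adjusted p = 0.00299). The MII call held without ERCC scaling (-1.08) and with median scaling (-1.18), while the GV call was lost under both (-0.32 and -0.26, adjusted p = 0.211 and 0.308). Bmp6 retained 15.6% of its GV level in WT and 13.6% in Zar1/2-null MII oocytes, log2 changes of -2.33 and -2.25 (-0.88 and -1.64 without ERCC scaling) that differed by 0.08 (standard error 0.19, adjusted p = 0.764). The sign of that difference turned without ERCC scaling, to -0.76 (limma adjusted p = 0.0413). Between growing and GV oocytes it changed by 0.04 in WT and -0.33 in Zar1/2-null oocytes, neither past the threshold (adjusted p = 0.834 and 0.0527).

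Fgf8, a ligand of FGF receptors on cumulus cells, was the gene that was higher in growing Zar1/2-null oocytes. It stood at 100.1 and 115 FPKM in WT against 188 and 178 FPKM in Zar1/2-null growing oocytes. At GV the WT libraries had 93.7 and 89.7 FPKM and the Zar1/2-null libraries 94.0 and 137 FPKM, and at MII 0.902 and 1.17 FPKM faced 3.31 and 2.72 FPKM. The Zar1/2-null libraries were above the WT libraries at each stage, at GV only just. The log2 fold change was 0.77 in growing (standard error 0.18, limma adjusted p = 0.00832), 0.30 in GV (adjusted p = 0.200) and 0.98 in MII oocytes (adjusted p = 0.00171). The growing and MII calls held without ERCC scaling (1.05 and 1.14) and with median scaling (1.00 and 1.01), and under these scalings the GV difference passed too (0.75 and 0.81, adjusted p = 0.00889 and 0.00473). Without WT growing replicate 1 the growing difference was 0.67 (adjusted p = 0.0682), and without Zar1/2-null GV replicate 1 the GV difference was 0.57 (adjusted p = 0.0288).

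The measured Fgf8 level fell steeply from GV to MII in both genotypes. Because the libraries were primed on poly(A) tails, loss of mRNA cannot be told apart from shorter tails. The MII mean was 1.13% of the GV mean in WT and 2.61% in Zar1/2-null oocytes, a fall of 88.4-fold and 38.2-fold. The fall was 26.3-fold and 18.3-fold without ERCC scaling and 16.2-fold and 12.8-fold with median scaling. The log2 changes of -5.51 and -4.84 differed by 0.67 (limma adjusted p = 0.0657), and by 0.94 without Zar1/2-null GV replicate 2 (adjusted p = 0.00961). With a pseudocount of 0.1 FPKM, which weighs the low MII values more, the difference was 1.15 (adjusted p = 0.00937). The rank of Fgf8 went from 1155 and 1019 at GV to 5903 and 5660 at MII in WT, and from 784 and 616 to 4022 and 4261 in Zar1/2-null oocytes. From growing to GV oocytes Fgf8 changed by -0.22 in WT (limma adjusted p = 0.366) and fell by 0.69 in Zar1/2-null oocytes (adjusted p = 0.00782). The Zar1/2-null call was lost without ERCC scaling (-0.14, adjusted p = 0.560) and with median scaling (-0.049, adjusted p = 0.842). It was also lost with only the groups compared (adjusted p = 0.0518) and without Zar1/2-null GV replicate 1 (fall of 0.42).

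Kit, the receptor tyrosine kinase that receives KIT ligand from granulosa cells, was lower in Zar1/2-null oocytes at all 3 stages. It stood at 75.7 and 77.8 FPKM in WT against 42.5 and 50.6 FPKM in Zar1/2-null growing oocytes. At GV it was 48.6 and 45.4 FPKM in WT against 26.4 and 24.4 FPKM in Zar1/2-null oocytes, and at MII 17.3 and 22.7 FPKM in WT against 8.30 and 10.9 FPKM in Zar1/2-null oocytes. The genotypes did not overlap at any stage, and the WT mean was 1.65-fold, 1.85-fold and 2.08-fold the Zar1/2-null mean. The log2 fold change was -0.71 in growing (standard error 0.18, limma adjusted p = 0.00912), -0.86 in GV (adjusted p = 0.00279) and -0.98 in MII oocytes (adjusted p = 0.00116). The MII call held without ERCC scaling (-1.27) and with median scaling (-1.39). The growing call was lost under both (-0.43 and -0.47, adjusted p = 0.143 and 0.0901), as was the GV call (-0.43 and -0.36, adjusted p = 0.173 and 0.200). The growing call was also lost without WT growing replicate 2 (adjusted p = 0.0522) or Zar1/2-null growing replicate 1 (adjusted p = 0.0628).

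Kit was the best retained of the 6 mRNAs in WT MII oocytes. Its MII mean was 42.6% of the GV mean in WT and 37.9% in Zar1/2-null oocytes, log2 changes of -1.20 and -1.32 (limma adjusted p = 4.98e-05 and 3.95e-05). The WT change turned without ERCC scaling (0.51, adjusted p = 0.0478) and with median scaling (1.19, adjusted p = 0.000132), while in Zar1/2-null oocytes it was -0.34 and 0.16, neither past the test. The changes differed by -0.12 (standard error 0.25, adjusted p = 0.724), and by -1.03 with median scaling (adjusted p = 0.0137). The rank of Kit went in WT oocytes from 1940 and 1796 at GV to 1073 and 858 at MII, while in Zar1/2-null oocytes it was 2127 and 2440 at GV and 2442 and 1880 at MII. From growing to GV, Kit fell by 0.70 in WT and by 0.85 in Zar1/2-null oocytes on the log2 scale (adjusted p = 0.0148 and 0.00183).

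Gja4, the connexin of the oocyte side of the gap junction, showed the largest difference between genotypes among the 6 genes, and this lay at MII. It stood at 480 and 584 FPKM in WT against 476 and 496 FPKM in Zar1/2-null growing oocytes. At GV it was 363 and 343 FPKM in WT against 229 and 328 FPKM in Zar1/2-null oocytes. At MII it was 6.83 and 7.95 FPKM in WT against 31.1 and 30.2 FPKM in Zar1/2-null oocytes. The genotypes overlapped in growing oocytes, the Zar1/2-null libraries lay below WT at GV, and at MII they lay 4.15-fold above on average. The log2 fold change was -0.12 in growing (standard error 0.18, limma adjusted p = 0.633), -0.37 in GV (adjusted p = 0.129) and 1.92 in MII oocytes (adjusted p = 1.03e-05). The MII call held without ERCC scaling (1.78) and with median scaling (1.66) and without any single library (1.82 to 2.02). The growing and GV values turned positive under both scalings (0.16 and 0.12, 0.09 and 0.14), none past the test, and without Zar1/2-null GV replicate 2 the GV difference was -0.62 (adjusted p = 0.0220).

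The fall of the measured Gja4 level during maturation differed between genotypes. The MII mean was 2.09% of the GV mean in WT and 11.0% in Zar1/2-null oocytes, a fall of 47.8-fold and 9.08-fold. The fall was 14.2-fold and 4.32-fold without ERCC scaling and 8.76-fold and 3.03-fold with median scaling. The log2 changes were -5.40 and -3.12 (limma adjusted p = 4.06e-10 and 5.98e-08) and differed by 2.28 (adjusted p = 6.34e-05), by 1.70 without ERCC scaling and by 1.51 with median scaling, each past the test. The rank went from 310 and 268 to 2184 and 2057 in WT oocytes and from 356 and 247 to 956 and 884 in Zar1/2-null oocytes. From growing to GV, Gja4 fell by 0.58 in WT and by 0.83 in Zar1/2-null oocytes (adjusted p = 0.0345 and 0.00285). Gja4 was the 1 gene of the 6 whose mean differed more than 3-fold between genotypes at MII (7.49% of all genes tested were higher and 1.32% lower by that rule), and 0 of the 6 differed so far in growing oocytes (0.982% higher and 3.54% lower of all genes) or GV oocytes (0.461% and 4.20%). Without Zar1/2-null MII replicate 2 or WT MII replicate 2, 2 of the 6 passed 3-fold at MII.

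Most of the 6 genes passed the test as lower at the later stage, as many other genes did. From growing to GV oocytes 4 were lower in WT (28.7% of all genes tested were), namely Gdf9, Bmp15, Kit and Gja4, and 5 in Zar1/2-null oocytes (55.9%), the same 4 and Fgf8. Without ERCC scaling 0 and 1 were called. The WT calls also rested on single libraries: leaving out any of the 4 WT growing and GV libraries left 0 to 2 calls. From GV to MII all 6 were lower in WT (93.4% of all genes) and all but Gdf9 in Zar1/2-null oocytes (68.7%). The WT changes depended on the scaling: with median scaling Gdf9, Bmp15 and Kit were higher at MII (0.91, 0.46 and 1.19), Fgf8 and Gja4 remained lower, and the median over all genes moved by 1.33. Fgf8 and Gja4 were the 2 of the 6 that fell more than 10-fold in WT oocytes, a fall that 15.7% of all genes showed.

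The genotype difference of the GV-to-MII change was tested as an interaction. It passed the test in the positive direction for 3 of the 6 genes, Gdf9, Bmp15 and Gja4, and for 33.9% of all genes tested. Of these 3, Gja4 alone still passed under both other scalings. Among the 3921 genes whose GV mean reached 10 FPKM in both genotypes, the median gene kept 16.9% of its GV level in WT and 36.3% in Zar1/2-null MII oocytes. Placed among these genes by the share kept, Gdf9 went from percentile 67.8 in WT to 87.5 in Zar1/2-null oocytes, Bmp15 from 59.9 to 66.4 and Gja4 from 13.2 to 20.8. Bmp6 went from 48.1 to 25.1, Kit from 76.2 to 51.9 and Fgf8 from 7.50 to 2.81. By the share kept, Gdf9, Bmp15 and Gja4 thus stood higher among these genes in Zar1/2-null oocytes than in WT, and the other 3 lower. These shifts were not tested. No percentile moved by more than 1 under the other scalings. A scaling multiplies all genes of a library alike, so these percentiles could hardly move and their stability is no check of the shifts. The genotype difference of the growing-to-GV change passed the test for 0 of the 6 genes (limma, with 0 also at an unadjusted p under 0.05), and for 13.9% of all genes tested.

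**Figure D4:**
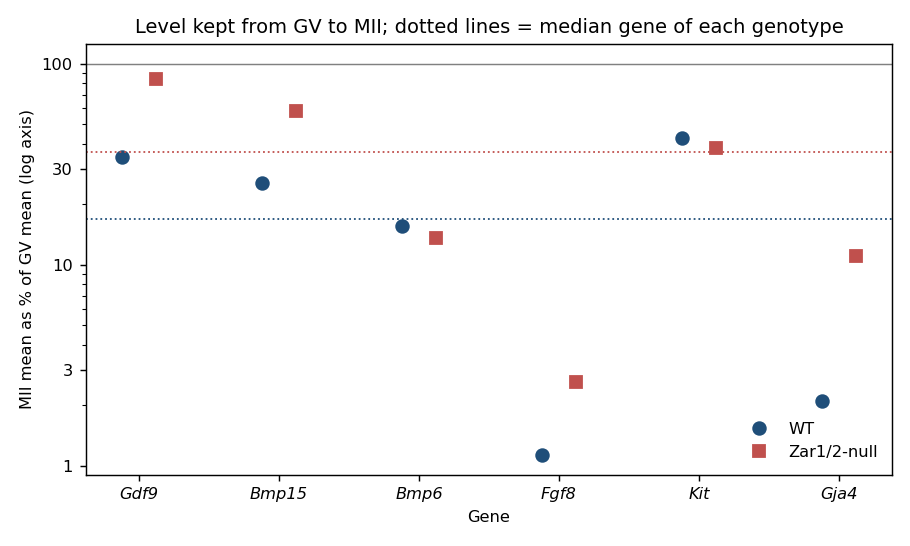
MII mean as a percentage of the GV mean for each gene (log axis; WT circles, Zar1/2-null squares; each mean of 2 libraries), with dotted lines at the median of 3921 genes in each genotype (16.9% in WT, 36.3% in Zar1/2-null). The share kept is larger in Zar1/2-null than in WT oocytes for Gdf9 (83.8% against 34.2%), Bmp15 (57.8% against 25.4%), Gja4 (11.0% against 2.09%) and Fgf8 (2.61% against 1.13%). Bmp6 and Kit are close to their WT values.

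**Figure D5:**
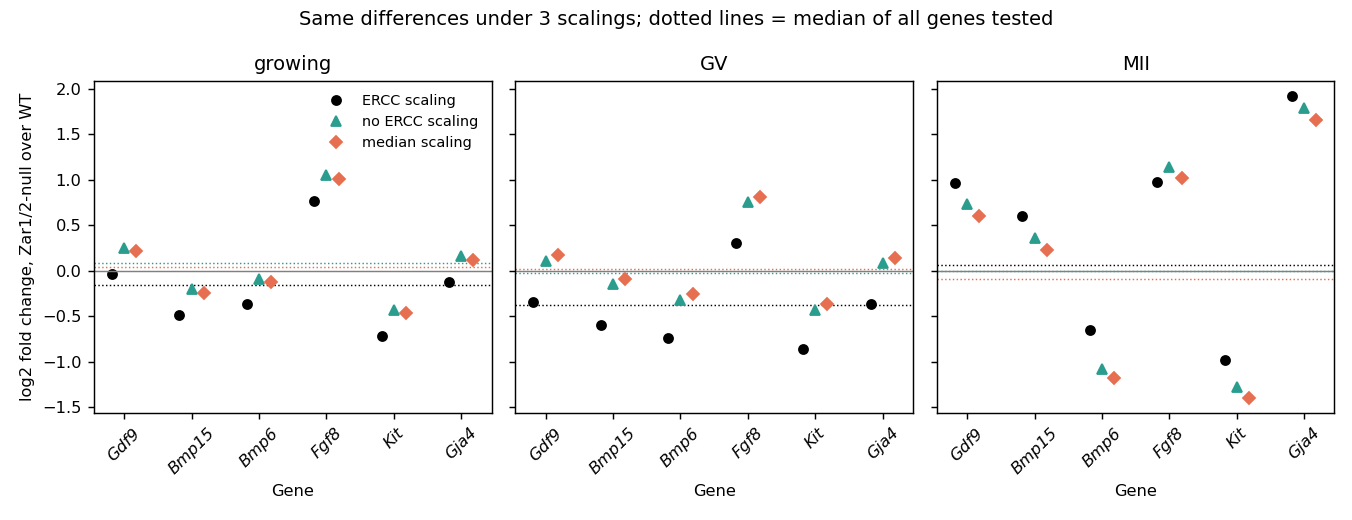
Log2 fold change of Zar1/2-null over WT oocytes for the 6 genes at each stage with the deposited ERCC scaling (circles), without it (triangles) and with a common median (diamonds), and the median of all genes tested under each (dotted lines). At MII, Gja4 (1.92, 1.78 and 1.66) and Kit (-0.98, -1.27 and -1.39) keep their direction and calls, whereas at GV Gdf9 and Gja4 change sign.

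The genes whose levels followed each of the 6 most closely were found by Pearson's r of log2(FPKM + 1) over the 12 libraries, among the 4326 genes that averaged 10 FPKM or more. They were Tmem48, Spats2 and Fam69b for Gdf9 (r = 0.997, 0.995 and 0.995), Mta3, Ap1m1 and 1110049F12Rik for Bmp15 (0.991, 0.989 and 0.986) and Tmem11, Gm5434 and Mtmr2 for Bmp6 (0.996, 0.995 and 0.994). For Fgf8 they were Zfp524, Pmm1 and Sra1 (0.999, 0.998 and 0.998), for Kit Ipcef1, Arfip1 and Stk35 (0.989, 0.988 and 0.988), and for Gja4 Cpeb1, Pfn1 and Grina (0.998, 0.998 and 0.997). Cpeb1 encodes the protein that binds the CPE. These values describe libraries that share an ERCC factor and a fall at MII. Without ERCC scaling Fam69b, Mta3, Mtmr2, Pmm1 and Ipcef1 stayed among the first 3 of their gene, and none of the first 3 did for Gja4. Among the 6 genes themselves r ran from 0.734 (Gdf9 and Kit) to 0.980 (Fgf8 and Gja4).

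The receptors for the ligands were measured in the oocyte only, so the values do not describe granulosa cells. Of the 9 tested BMP and TGF-beta receptors among 13 listed, 0 were higher and 3 lower in Zar1/2-null growing oocytes, 0 and 7 in GV oocytes, and 1 and 4 in MII oocytes. For this and the lists below, the shares over all genes tested were 10.6% higher and 24.4% lower in growing oocytes. They were 2.83% and 40.6% in GV, and 21.5% and 10.3% in MII oocytes. Without ERCC scaling 4 of the 9 receptors were called at GV. Bmpr2, the type II receptor for GDF9 and BMP15, had 8.76 and 7.33 FPKM in WT against 2.27 and 1.48 FPKM in Zar1/2-null growing oocytes, and was lower at all 3 stages (log2 fold change -1.66, -1.15 and -1.11). Bmpr1b, a type I receptor of BMP15, was lower at all 3 stages, by 2.33-fold in growing and 2.38-fold in GV oocytes (28.3 ± 1.52 against 12.1 ± 2.15 FPKM in growing, SD, n = 2). Bmpr1a, a type I receptor of BMPs, was 13.2 ± 2.32 FPKM in WT against 6.05 ± 1.74 FPKM in Zar1/2-null GV oocytes, and Tgfbr1, a type I receptor of GDF9, was 2.69 ± 0.0111 against 0.562 ± 0.0146 FPKM there. Acvr1, a further type I receptor, was higher in Zar1/2-null MII oocytes at a low level (0.519 and 0.424 against 1.44 and 2.76 FPKM).

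Genes downstream of and related to the ligands were examined next. Of 7 tested SMAD and SMAD ubiquitin ligase genes, 1 was higher and 1 lower in growing, 0 and 5 in GV, and 0 and 2 in MII oocytes. At GV 40.6% of all genes tested were lower. Smad2 and Smad3, which carry the GDF9 type of signal, were lower in Zar1/2-null GV oocytes (log2 fold change -1.01 and -0.93), Smad2 also in growing and MII oocytes (-0.58 and -0.89), and Smurf2, a ubiquitin ligase, was higher in growing oocytes (0.66). Without ERCC scaling 1 of the 7 was called at GV. Of 4 tested other ligands among 19 listed, 0 were higher and 2 lower in growing, 1 and 1 in GV and 1 and 2 in MII oocytes. Bmp5 was lower at all 3 stages, from 80.9 and 76.8 FPKM in WT to 18.6 and 10.5 FPKM in Zar1/2-null growing oocytes (log2 fold change -2.41), and Tgfb2 was lower at MII (-0.61). Of 3 tested antagonists, 0 were called in growing and MII oocytes and 1 was lower at GV. Of 3 tested proprotein convertases, which cleave the ligand precursors, 1 was lower in growing, 2 in GV and 0 in MII oocytes, with Furin at 7.38 ± 0.678 FPKM in WT against 4.18 ± 0.127 FPKM in Zar1/2-null GV oocytes and Pcsk5 under 1 FPKM in every library.

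Of 8 tested FGF ligands, receptors and Sprouty genes, 1 was higher and 4 lower in growing, 2 and 3 in GV, and 2 and 2 in MII oocytes. Over all genes tested 24.4% were lower in growing and 40.6% in GV oocytes. Spry1, an inhibitor of the pathway, was higher in growing and GV oocytes (log2 fold change 0.57 and 0.43) and lower at MII (-0.56), where it stood at 0.556 and 0.516 FPKM against 0.938 and 1.66 FPKM in WT. Spry4 was higher at MII (0.42), a call lost without ERCC scaling (0.22). Fgfr2 was lower in growing and GV oocytes (-0.91 and -0.86) from 8.42 ± 0.463 and 8.23 ± 0.0287 FPKM in WT, Fgfr1 was under 2 FPKM throughout, and Fgfr4 was listed at 0 in every library.

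Of 24 tested genes of KIT ligand and the PI3K pathway that KIT activates, 3 were higher and 6 lower in growing, 1 and 15 in GV, and 2 and 4 in MII oocytes. Among all genes tested 40.6% were lower at GV. Without ERCC scaling 8 of the 24 in place of 16 were called at GV. Foxo1, a transcription factor that this pathway inhibits, fell from 43.4 ± 1.19 FPKM in WT to 16.6 ± 4.30 FPKM in Zar1/2-null GV oocytes (log2 fold change -1.36) and was lower at the other stages too (-0.48 and -0.92). Pik3r1, a regulatory subunit of PI3K, was lower at all 3 stages (-0.88, -1.05 and -0.67), and Akt1, a kinase of the pathway, was higher in growing and MII oocytes (0.90 and 0.92). Kitl, the granulosa ligand of KIT, was low in these oocyte libraries, with 2.29 and 2.58 FPKM in WT against 0.549 and 0.374 FPKM in Zar1/2-null growing oocytes.

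In growing oocytes 10.6% of all genes tested were higher and 24.4% lower, in GV 2.83% and 40.6%, and in MII 21.5% and 10.3%. Of 13 tested gap junction and adherens junction genes, 3 were higher and 6 lower in growing, 1 and 6 in GV, and 1 and 1 in MII oocytes. Among the lower genes were Ctnna1 (log2 fold change -1.74 in growing and -0.91 in GV), Ctnnb1 (-0.46, -1.16 and -0.86 in growing, GV and MII) and Cdh1 (-0.60 in growing and -0.75 in GV), which encode alpha-catenin, beta-catenin and E-cadherin. Other cadherin and catenin genes, named after their values were seen, did not all share that direction. Cdh2 was higher in growing and MII oocytes (0.85 and 1.14), Cdh3 was lower at GV (-0.58) and Ctnnd1 passed at no stage. Without ERCC scaling the calls of Cdh1 and Cdh3, of Ctnnb1 in growing and of Ctnna1 in GV oocytes were lost. Gja1, the connexin of granulosa cells, was at 2.45 and 1.27 FPKM in WT against 0.496 and 0.270 FPKM in Zar1/2-null growing oocytes, and at 0.229 and 0.141 against 1.47 and 1.33 FPKM at GV. Panx1, which forms membrane channels, was higher in growing oocytes (0.44).

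Of 7 tested oocyte transcription factors, 0 were called in growing oocytes, 2 were higher and 1 lower in GV, and 4 were higher and 1 lower in MII oocytes. At MII 21.5% of all genes tested were higher and 10.3% lower, and at GV 2.83% and 40.6%. Nobox, an activator of Gdf9 and Bmp15 transcription, had 357 ± 56.2 FPKM in WT against 619 ± 25.9 FPKM in Zar1/2-null growing oocytes, a log2 difference of 0.80 that did not pass the test (limma adjusted p = 0.0655), and was higher at MII (0.92, adjusted p = 0.0415). Figla was higher at MII, where it stood at 22.1 and 12.1 FPKM in Zar1/2-null and 0.276 and 0.687 FPKM in WT oocytes. Gtf2a1l was higher in GV and MII oocytes (0.64 and 1.34) and Tbpl2, a core factor of oocyte transcription, was lower at GV and MII (-1.04 and -0.57). Lhx8 passed at no stage (-0.07, -0.39 and 0.34), and Sohlh1 was under 1 FPKM in every library.

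Granulosa and cumulus markers together were lower in Zar1/2-null growing oocytes, and most of that difference lay in Cyp19a1. The summed granulosa and cumulus markers were 38.3 and 32.6 FPKM in WT against 25.7 and 17.4 FPKM in Zar1/2-null growing oocytes, 21.3 and 18.5 against 16.6 and 18.8 FPKM at GV, and 5.31 and 5.66 against 8.61 and 7.43 FPKM at MII. Of the 7 tested, 1 was higher and 4 lower in growing, 2 and 2 in GV and 0 and 0 in MII oocytes. Beside this list and those below, 10.6% of all genes tested were higher and 24.4% lower in growing oocytes. The shares were 2.83% and 40.6% in GV, and 21.5% and 10.3% in MII oocytes. Cyp19a1, the aromatase gene, was the most abundant of them in WT growing oocytes (17.9 ± 1.63 FPKM, against 5.13 ± 3.67 FPKM in Zar1/2-null oocytes). Cyp19a1 was also the most abundant of the 24 in WT and Zar1/2-null MII oocytes (3.93 and 6.44 FPKM on average). In each of those groups 12 of the 24 markers were listed at 0 in both libraries. The part of granulosa cells in the Cyp19a1, Kit, Fgf8, Kitl and Gja1 values of growing oocytes was not tested. Of 11 theca, blood and endothelial markers, 2 were tested, of which 1 was higher in growing, 0 in GV and 1 in MII oocytes. The sum of the 11 was 3.29 to 12.6 FPKM. In growing oocytes that sum was 10.5 and 11.7 FPKM in WT against 12.6 and 12.4 FPKM in Zar1/2-null oocytes. Of 11 tested oocyte markers, 1 was higher and 1 lower in growing, 0 and 1 in GV and 8 and 0 in MII oocytes, with Zp3 at 16.4 ± 0.476 FPKM in WT against 739 ± 141 FPKM in Zar1/2-null MII oocytes and Zp1 higher by 4.24 on the log2 scale. In growing oocytes Ddx4 was higher (0.96) and Dppa3 lower (-0.71), and at GV Ddx4 was lower (-0.61).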

How the data were processed

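Libraries of oocytes at 3 stages and of both genotypes had been made by Smart-seq2 from oligo-dT primers, so fewer mRNA molecules cannot be told apart from shorter poly(A) tails. The authors trimmed reads, mapped them to mm9 with TopHat2 2.1.1, kept unique alignments, quantified UCSC gene models with Cufflinks 2.2.1 and deposited FPKM values for 23230 genes, multiplied by the ERCC share of a WT growing library, here the one with the same replicate number, over that of the library. The factors were recovered from the deposited FPKM values, which return to 6 significant digits once the factor is divided out. Read counts were not used, so the counting error of a value is unknown.

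Genes with 1 FPKM in at least 1 of the 12 libraries were kept (11502). Values as log2(FPKM + 1) were modelled in limma 3.58.1 (R 4.3.3) by 6 group means, an intensity trend and Benjamini-Hochberg adjustment over all genes kept, without a replicate term. The added 1 FPKM understates changes of low genes. Counts past 3-fold and 10-fold used a floor of 1 FPKM on each mean. Other folds of means and the shares kept from GV to MII used no floor. The fit was tested on simulated data with 200 genes changed 6-fold. That exceeds every genotype difference of the 6 members, so differences of their size were not checked. The ratio of Gdf9 to Bmp15 was tested by exact permutation (numpy 2.4.6).

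The members, lists and tests were chosen with earlier results of these data known. Named are the 6 genes, Zar1 and Zar1l, fixed receptors, partners and transcription factors, from each list up to 2 called genes in each direction and stage with the largest log2 fold change and 10 FPKM or more on average in the group with the higher level, and the 3 genes most correlated with each member. Genotype, stage and replicate came from the sample titles. Alternatives were no ERCC scaling, median scaling, a pseudocount of 0.1 FPKM, a mean of at least 5 FPKM, no filter, a replicate block, only the groups compared, and leaving out each library. A crossed replicate block was chosen after seeing the data. Sequences and positions came from the mm9 genome and its GENCODE annotation.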

Additional observations from a re-analysis of the deposited data

Results flagged for a closer look

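The change from GV to MII differed between genotypes for 3 of the 6 genes in the interaction test of limma with Benjamini-Hochberg adjustment. All 3 passed in the positive direction, as did 33.9% of all genes tested. The Zar1/2-null change exceeded the WT change by 1.31 on the log2 scale for Gdf9 (adjusted p = 0.00396, range 1.05 to 1.57 when a library was left out), by 1.20 for Bmp15 (adjusted p = 0.00512, range 0.96 to 1.43) and by 2.28 for Gja4 (adjusted p = 6.34e-05, range 2.03 to 2.54). Without ERCC scaling the differences were 0.62, 0.51 and 1.70, and with median scaling 0.43, 0.32 and 1.51, and under both Gja4 alone passed (adjusted p = 0.0543, 0.133 and 0.00024, and 0.177, 0.300 and 0.000366). No group had 4 or more libraries, so no single library was assessed as standing apart from its group.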

How the results depend on the processing

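Scaling moved the results most. Of the 54 log2 differences of the 6 genes over 9 comparisons, 23 kept direction and side of the threshold without ERCC scaling and 20 with median scaling. The sign changed without ERCC scaling and with median scaling for Gdf9 and Gja4 in growing (0.25 and 0.21, 0.16 and 0.12) and GV oocytes (0.11 and 0.17, 0.086 and 0.14), for Fgf8 between growing and GV in WT (0.16 and 0.15), for Bmp6 there in Zar1/2-null (0.19 and 0.26), for Gdf9 and Kit between GV and MII in WT (0.21 and 0.91, 0.51 and 1.19) and for Gdf9 and Bmp15 there in Zar1/2-null oocytes (0.83 and 1.34, 0.27 and 0.78). With median scaling it also changed for Bmp15 in WT (0.46) and Kit in Zar1/2-null oocytes (0.16). The genotype difference of the growing-to-GV change turned for Bmp15 (0.049 and 0.15), Kit (0.0060 and 0.10) and, with median scaling, Gja4 (0.025), and that of the GV-to-MII change for Bmp6 (-0.76 and -0.92, and -0.15 with a pseudocount of 0.1 FPKM). The number of the 6 genes called became 1 under both scalings in growing and in GV oocytes and between growing and GV in Zar1/2-null oocytes. Between growing and GV in WT it became 0 under both, 1 with no filter and 2 with only the groups compared. With median scaling 1 gene fell more than 10-fold in WT. The filter at a mean of 5 FPKM changed none of the 54 results. The cause was not tested.

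When single libraries were left out, 1 to 3 genes were called in growing oocytes, 0 to 4 between growing and GV in WT, and 1 to 2 passed 3-fold at MII. The sign turned for Gdf9 and Gja4 in growing oocytes (-0.18 to 0.11, -0.27 to 0.016), Gdf9 between GV and MII in Zar1/2-null oocytes (-0.49 to 0.027), and the genotype differences of Bmp15 and Gja4 between growing and GV (-0.25 to 0.014, -0.50 to 0.018) and of Bmp6 and Kit between GV and MII (-0.014 to 0.17, -0.31 to 0.064). The log2 ratio of Gdf9 to Bmp15 differed by 0.28 to 0.45. At a lone library the fit assumed the spread of the other groups.

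Same-numbered libraries share a WT growing library as ERCC reference, but no label ties them to a female or day, so no pairing was assumed. The deviations of same-numbered WT and Zar1/2-null libraries correlated at 0.163 in growing, -0.117 in GV and 0.0872 in MII oocytes over genes. With a replicate block, 5268 in place of 4991 genes were called in GV oocytes, and 1 result of the 54 changed its call: Bmp15 passed in growing oocytes (-0.49, limma adjusted p = 0.0435). With the Zar1/2-null GV numbers crossed, 5556 were called. With 2 libraries per group, smaller differences may have been missed. Reads per gene were not used here.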
